A study of Mus musculus with 16 samples.

Results

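The genes of glycolysis and of the hypoxia response were followed through 16 mouse osteoclast cultures of 4 genotypes. The set was a list of 38 names: glycolytic enzymes, transporters of glucose and lactate, and targets of the hypoxia-inducible factor HIF. The rule names genes by function and uses no measured value, but the list was drawn up with earlier results of these data known. Of the 21936 genes in the table, 37 were found under the listed symbol and the other, Ero1l, under its current symbol Ero1a by gene ID. All 38 had enough counts to be among the 12093 genes tested.

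Osteoclasts, the cells that dissolve bone, were obtained by culture of marrow cells positive for CD11b, from C57BL/6J mice, and their poly(A) RNA was sequenced. The cells were kept for 3 days with M-CSF at 50 ng/ml, after which RANKL at 20 ng/ml was added to the same medium, in all groups. RNA was taken on day 3 to 5, when mature osteoclasts first appeared. Which of these days applied to which culture is not recorded in the labels. The groups were wild type (WT), Ptprc KO, which lacks the gene of the CD45 phosphatase of blood cells, FLT3 ITD, in which a knocked-in internal tandem duplication keeps the FLT3 receptor kinase active, and FLT3 ITD Ptprc KO, which carries both changes and is called the double mutant here. Each had 4 libraries. The series' design text gives a sample total above 16, although its groups add up to 16. The growth protocol also allows for the FLT3 inhibitor AC220 in some experiments. No library is labelled as treated with it, so the FLT3 ITD libraries are taken as untreated, which the labels do not state outright. The labels do not say that these came from separate animals, so a p-value here measures the spread among these cultures only, which may be technical. Age and sex of the mice are not given there either.

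Glycolysis splits glucose into pyruvate, and lactate dehydrogenase turns pyruvate into lactate, which leaves the cell through monocarboxylate transporters. Pyruvate dehydrogenase kinases restrain pyruvate dehydrogenase, the enzyme that passes pyruvate on to oxidation within the mitochondria. HIF-1 is a transcription factor whose alpha subunit is marked for degradation by prolyl hydroxylases when oxygen is present. When oxygen is short it binds DNA at a short core motif, the hypoxia response element, and raises the transcription of glycolytic enzymes, glucose transporters, Vegfa, Bnip3 and the hydroxylases themselves. Osteoclasts hold many mitochondria and also use glycolysis while they resorb bone.

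The core of the hypoxia response element was searched for in the promoters, because it is the sequence that HIF target genes are known to share. The letters ACGTG and GCGTG were looked for on both strands (read in reverse as CACGT and CACGC) in the 250 bases before each transcription start listed by RefSeq on build GRCm38.p6. ACGTG is also part of the E-box CACGTG, which other factors bind. Of 51 windows of 35 members, 41 held either form (80.4%), as did 38.6% of all 32851 windows of that length and 55.3% of the 12370 windows of tested genes. ACGTG alone was in 51% of the members' windows, 16.6% of all windows and 21.6% of those of tested genes. CACGTG was in 9.8% of the members' windows, 6.02% of all and 8.33% of those of tested genes. Of 10 members with at least 1 window that held neither form, Eno2, Gpi1 and Tpi1 had no match in any window, and Slc2a3, Bnip3l and Ndrg1 had no window in the table. The members include known HIF targets by design, so these shares are a description, and a match is not a measured binding site. Stretches of 40 bases are shown, 5′ to 3′ on the gene's own strand with the matches in capitals. The first 7 belong to members described below for their values in the double mutant, and the last 3 to members known for response elements near their start, Bnip3, Ldha and Pgk1.
Ankrd37, chr8:45999982-46000021, minus strand: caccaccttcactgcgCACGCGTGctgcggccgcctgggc
Slc16a3, chr11:120949013-120949052, plus strand: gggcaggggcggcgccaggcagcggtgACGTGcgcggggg
Egln1, chr8:124949359-124949398, minus strand: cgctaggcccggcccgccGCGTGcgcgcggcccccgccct
Egln3, chr12:54204082-54204121, minus strand: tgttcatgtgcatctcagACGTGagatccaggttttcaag
P4ha1, chr10:59323256-59323295, plus strand: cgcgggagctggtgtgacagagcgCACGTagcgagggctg
Pfkp, chr13:6648886-6648925, minus strand: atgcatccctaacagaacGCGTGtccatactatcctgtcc
Pdk3, chrX:93832292-93832331, minus strand: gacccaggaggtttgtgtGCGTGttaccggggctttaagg
Bnip3, chr7:138909593-138909632, minus strand: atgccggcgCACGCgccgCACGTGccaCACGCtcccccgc
Ldha, chr7:46845745-46845784, plus strand: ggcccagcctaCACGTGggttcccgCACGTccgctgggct
Pgk1, chrX:106186942-106186981, plus strand: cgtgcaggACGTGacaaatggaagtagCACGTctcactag
Each stretch was picked from the gene's windows to lie outside annotated exons where possible, and next to hold the most matches. None of the stretches overlapped an annotated exon, which this choice favours, as it does several matches in 1 stretch. Ankrd37, Bnip3, Ldha and Pgk1 held more than 1 match within 40 bases, and the other 6 stretches held 1.

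Total counts per library were 24211724 to 35773313. Levels are given as CPM (counts per 1000000, with library totals scaled by TMM) or, to compare genes with each other, as TPM (transcripts per 1000000, scaled for gene length). The targeted gene matched the labels: Ptprc stood at 30.8 to 45.8 CPM in Ptprc KO and 54.1 to 86.7 CPM in the double mutant, against 412 to 472 CPM in WT and 230 to 543 CPM in FLT3 ITD. Osteoclast markers were present in every library, but their summed level ran from 9110 to 66900 CPM. Double-mutant replicates 1, 2 and 4 (9110 to 11100 CPM) and FLT3 ITD replicate 4 (16500 CPM) were the 4 lowest, while double-mutant replicate 3 stood at 48200 CPM. Macrophage markers summed to 2720 to 8890 CPM. The 4 libraries highest in them were WT replicate 3, Ptprc KO replicate 4, FLT3 ITD replicate 4 and double-mutant replicate 2. These were also the 4 highest in summed neutrophil markers. In double-mutant replicate 2 that sum rested on Mmp8, at 191 of 203 CPM, and each other neutrophil marker was at 4.53 CPM or less. Mmp8 also made up 184 of 291 CPM in FLT3 ITD replicate 4. FLT3 ITD replicates 1 and 3 were far closer to each other than any other pair (chi-square per gene 2.73, next pair 12.6), and in FLT3 ITD replicate 2 the levels were related to gene length. Its Spearman rho over genes was -0.46, where the remaining libraries lay between -0.181 and 0.181, and genes do not count as replicates. Proliferation genes summed to 923 to 3680 CPM in the double mutant and 486 to 2080 CPM elsewhere. Markers of stromal, endothelial, lymphoid and erythroid cells summed to at most 69.6 CPM in any library, and 4 of 9 erythroid markers were at 0 in all. In bulk RNA, fewer cells of a type and less RNA per cell cannot be told apart.

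The 10 members with the highest TPM were all glycolytic enzyme genes. Aldoa, the aldolase gene, led with 2970 ± 811 TPM (SD over 16 libraries), followed by the pyruvate kinase gene Pkm (1860 ± 536), Ldha (1180 ± 412), Gapdh (784 ± 211), Tpi1 (745 ± 264), Pgk1 (682 ± 256) and Eno1 (564 ± 200). Past Aldoa, Pkm and Ldha the steps in this order were smaller than the SD of each gene. That SD describes the spread over libraries and does not measure how firm the order is within a library. Transporter and HIF target genes lay lower, Slc2a1 at 98.7 TPM, Bnip3 at 92.9, Hif1a at 80 and Vegfa at 70.9. The lowest were Adm (0.702 TPM), Eno2 (1.42), Slc2a3 (1.68) and P4ha2 (2.57).

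Among genes for the same step, 1 form usually dominated. Aldoa made up 97.8% to 98.8% of the summed TPM of Aldoa and Aldoc, by group mean, and Eno1 at least 99.5% of that of Eno1 and Eno2. Slc2a1, the gene of the glucose transporter GLUT1, made up 98.1% to 98.4% of the sum with Slc2a3 (GLUT3). The hexokinases, which trap glucose in the cell as a phosphate, were more even. Hk3 held 48.9% to 57.2%, Hk1 28.7% to 38.1% and Hk2, the HIF-responsive form, 12.5% to 14.1% of their sum by group mean. In phosphofructokinase, the committed step, Pfkl held 41.3% to 48.8%, Pfkp 31.9% to 37% and Pfkm 14.2% to 24.8%. The share of Pfkm was 14.2% ± 3.94 in the double mutant and 24.8% ± 9.87 in WT (SD, n = 4 each), with overlapping libraries (8.86% to 18.3% and 16.2% to 35.1%).

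**Figure D1:**
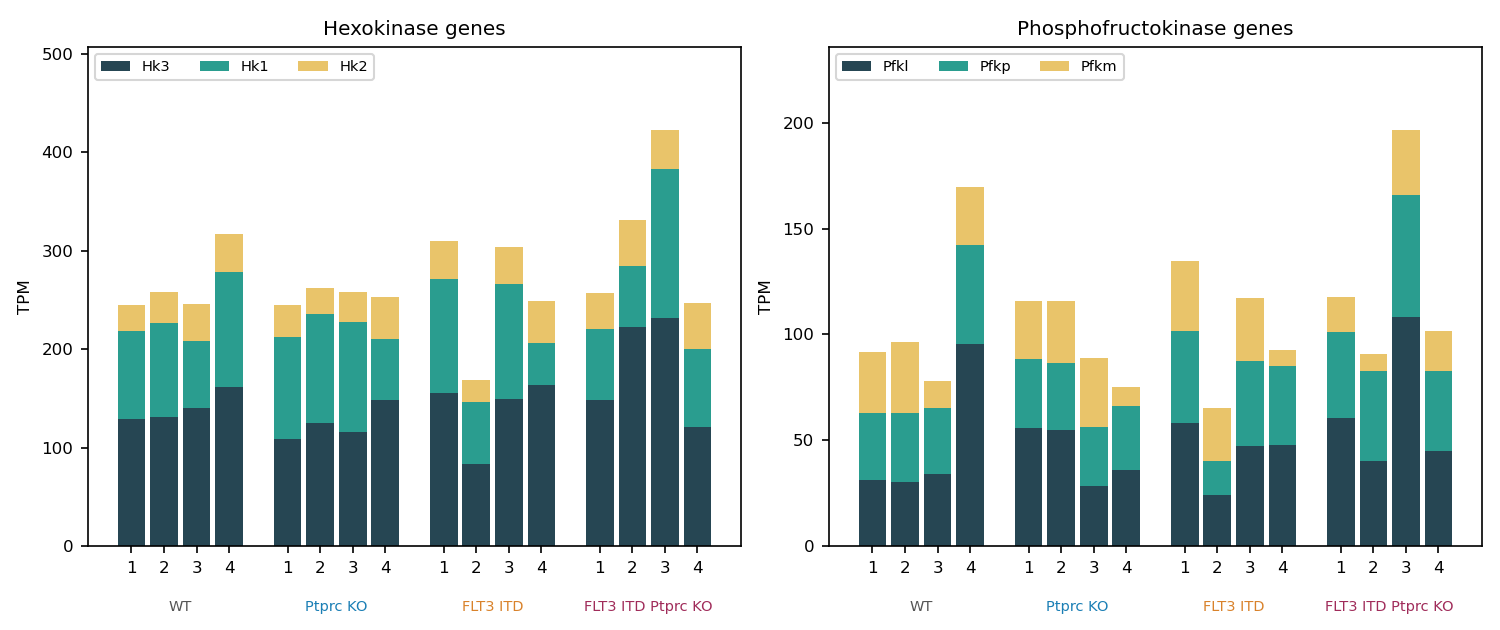
TPM of the hexokinase genes (left) and phosphofructokinase genes (right), stacked, with one bar per library and the replicates of each genotype side by side. Hk3 is the largest part of most hexokinase bars, and Pfkm is thin in WT replicate 3, Ptprc KO replicate 4, FLT3 ITD replicate 4 and double-mutant replicate 2.

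The transporters varied several-fold between cultures of 1 genotype. Slc2a1 stood at 52.6, 60, 113 and 105 CPM in WT replicates 1 to 4, at 61.1, 59.1, 54.9 and 141 CPM in Ptprc KO, at 80.2, 81.1, 69.1 and 287 CPM in FLT3 ITD and at 118, 204, 85.4 and 112 CPM in the double mutant. The ranges of all 4 genotypes overlapped, and a single library was far above the rest in Ptprc KO and in FLT3 ITD. Slc2a3 ran from 0.981 to 6.83 CPM (37 to 223 counts). Slc16a3, the gene of the lactate exporter MCT4, stood at 50.8, 37.1, 55.5 and 189 CPM in WT and at 87.6, 84.2, 33.4 and 59.3 CPM in Ptprc KO. Its FLT3 ITD libraries held 116, 42.4, 90 and 106 CPM, and the double mutant 205, 90.5, 227 and 128 CPM. The double-mutant libraries all lay above the Ptprc KO libraries but overlapped WT, through replicate 4 alone, and FLT3 ITD. Slc16a3 (ENSMUSG00000025161) lies on chromosome 11, 120948480 to 120960868 (GRCm38).

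The summed level of the 17 enzyme genes differed widely between cultures of 1 genotype. Their summed TPM ran from 6300 in double-mutant replicate 2 to 18293 in double-mutant replicate 3, 2 cultures of 1 genotype, and stood at 13143 in WT replicate 4 against 8290 to 8460 in the other WT libraries. Ldha stood at 810, 839, 938 and 1570 CPM in WT, 1030, 1250, 948 and 790 CPM in Ptprc KO, 1380, 1510, 1180 and 1080 CPM in FLT3 ITD, and 1310, 679, 2220 and 1190 CPM in the double mutant. The double mutant thus held both the lowest and the highest library for Ldha. Pkm stood at 2150, 2160, 2320 and 3250 CPM in WT, 2430, 2700, 2440 and 2160 CPM in Ptprc KO, 2850, 2610, 2730 and 2620 CPM in FLT3 ITD, and 3880, 2230, 4530 and 3360 CPM in the double mutant. For Pkm, 3 of the 4 double-mutant libraries lay above all other libraries, and replicate 2 lay among the others. Double-mutant replicate 3 was the highest of the 16 libraries for 13 of the 17 enzymes, and double-mutant replicate 2 the lowest for 7.

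Other enzymes had their high and low libraries elsewhere. Hk2 ran between 43.8 and 91.9 CPM over all libraries, at 43.8, 53.6, 66.4 and 64.9 CPM in WT, 51.1, 52.3, 57.5 and 80.2 CPM in Ptprc KO, 68.7, 51.2, 67.6 and 91.9 CPM in FLT3 ITD and 62.2, 89.3, 68.2 and 72.3 CPM in the double mutant. Its ranges overlapped in all genotypes. Eno2, the enolase form typical of neurons, was at 3 CPM or less in 14 libraries and reached 6.95 CPM in FLT3 ITD replicate 4 and 8.51 CPM in double-mutant replicate 2 (overall 0.264 to 8.51 CPM, 7 to 246 counts). Pfkm, the muscle type of phosphofructokinase, had its lowest values in the same libraries, 8.53 and 7.88 CPM, against up to 36.2 CPM elsewhere. Aldoc ran from 14.5 to 93.8 CPM.

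The regulators of flux did not share 1 pattern. Pfkfb3 and Pfkfb4 make fructose 2,6-bisphosphate, the strongest activator of phosphofructokinase. Pfkfb3 stood at 18.2, 13.4, 35.6 and 22.5 CPM in WT, 14.5, 14.6, 9.82 and 47.8 CPM in Ptprc KO, 11.3, 6.41, 11 and 52.5 CPM in FLT3 ITD and 25.8, 41.9, 20.2 and 26.1 CPM in the double mutant. Its 4 highest libraries were the 4 with the highest macrophage markers, 1 of each genotype. The kinase gene Pdk1 stood at 175, 180, 172 and 327 CPM in WT, 178, 402, 278 and 136 CPM in Ptprc KO, 288, 172, 245 and 125 CPM in FLT3 ITD and 185, 93.9, 430 and 148 CPM in the double mutant. Its highest and lowest libraries were those of the summed enzymes, double-mutant replicates 3 and 2. Pdk3, the other kinase of the set, stood at 33.4, 29.2, 28 and 29.6 CPM in WT, 29.8, 46.5, 39.4 and 24.9 CPM in Ptprc KO, 36.5, 42.1, 35.7 and 19.3 CPM in FLT3 ITD and 17.4, 18.5, 27.9 and 18.9 CPM in the double mutant. All double-mutant libraries lay below all WT libraries, by 0.1 CPM at the closest, and they overlapped Ptprc KO and FLT3 ITD through 1 library each. Pdk3 (ENSMUSG00000035232) lies on chromosome X, 93764607 to 93832201, with no other gene annotated over it.

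The 4 highest libraries of Hif1a were not those of Egln1 or Egln3, while Egln1 and Egln3 had 3 of their 4 highest and 3 of their 4 lowest libraries in common. Hif1a stood at 94, 91.8, 210 and 106 CPM in WT, 84.1, 100, 106 and 240 CPM in Ptprc KO, 123, 89, 124 and 318 CPM in FLT3 ITD and 168, 251, 79.1 and 134 CPM in the double mutant. A single library stood far above its group in WT, Ptprc KO and FLT3 ITD, and these and double-mutant replicate 2 were again the 4 libraries with the highest macrophage markers. Egln1, the main oxygen-sensing hydroxylase, was the steadiest member, with 37.1 to 71.5 CPM over 16 libraries, a 1.93-fold range. Egln3, a hydroxylase strongly induced by hypoxia, was the most variable, with a 140-fold range from 0.189 to 26.5 CPM (5 to 814 counts). It stood at 0.553, 0.292, 1.79 and 13.4 CPM in WT, 1.02, 2.76, 0.189 and 1.64 CPM in Ptprc KO, 6.2, 0.52, 2.66 and 12.1 CPM in FLT3 ITD and 6.46, 2.8, 26.5 and 5.82 CPM in the double mutant. The double-mutant libraries all lay above the Ptprc KO libraries and overlapped WT and FLT3 ITD. Hif1a is overlapped on its own strand by Gm49321, so some reads may not be its own. Oxygen acts on the HIF-1 alpha protein, which RNA sequencing does not measure.

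Among the other HIF targets, Vegfa, the angiogenic growth factor, and Bnip3, a mitophagy receptor, had wide ranges without a separation of genotypes. Vegfa stood at 38.1, 38, 84.2 and 69 CPM in WT, 34.4, 92.4, 71.6 and 81 CPM in Ptprc KO, 107, 74.8, 101 and 348 CPM in FLT3 ITD and 28.6, 164, 158 and 33.5 CPM in the double mutant. FLT3 ITD replicate 4 was the highest library for Vegfa, 12.1-fold above the lowest, and the other libraries of the 4 genotypes overlapped. Bnip3 stood at 33.2, 30, 34.9 and 117 CPM in WT, 38.7, 114, 49.2 and 28.3 CPM in Ptprc KO, 100, 58.6, 71.3 and 36.3 CPM in FLT3 ITD and 40.5, 26.8, 212 and 28.6 CPM in the double mutant. Its 3 highest libraries came from 3 genotypes.

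Ankrd37, an ankyrin repeat protein gene known as a HIF-1 target, was the member whose variance lay most between genotypes (56.1%, against a median of 19% over the members and 26% over all tested genes). It stood at 0.553, 0.743, 0.996 and 1.78 CPM in WT, 1.41, 0.657, 0.605 and 1 CPM in Ptprc KO, 0.877, 0.78, 0.782 and 3.04 CPM in FLT3 ITD and 2.85, 2.18, 7.2 and 2.28 CPM in the double mutant. All 4 double-mutant libraries lay above all WT and Ptprc KO libraries, and FLT3 ITD replicate 4 lay among them. These levels rest on 15 to 221 counts per library. Ankrd37 (GRCm38 chromosome 8, 45996902 to 46005707) is overlapped on the other strand by Ufsp2 and Lrp2bp, and the sources used here do not say whether counting used strand.

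P4ha1, a collagen prolyl hydroxylase gene, stood at 41.4, 58.8, 73.3 and 122 CPM in WT, 65.2, 58.2, 46.9 and 94 CPM in Ptprc KO, 77.2, 53.6, 65.6 and 144 CPM in FLT3 ITD and 105, 141, 135 and 98.7 CPM in the double mutant. The double mutant lay above all Ptprc KO libraries. Higd1a, a small mitochondrial protein gene induced by hypoxia, stood at 22, 26.6, 24.1 and 30.2 CPM in WT, 26.5, 30.5, 33.3 and 26.9 CPM in Ptprc KO, 30.7, 67.8, 32.6 and 28.8 CPM in FLT3 ITD and 28.1, 21.7, 25.3 and 27.5 CPM in the double mutant. The highest value came from the library whose levels were related to gene length. Higd1a (ENSMUSG00000038412) lies on chromosome 9, 121848563 to 121858362. Of the remaining targets, Bnip3l ran from 53.3 to 148 CPM, Ero1a, an oxidase of protein folding, from 46.3 to 126, Ndrg1 from 15.9 to 56, the Myc antagonist Mxi1 from 27.7 to 57.1, P4ha2 from 2.16 to 8.67, and the adrenomedullin gene Adm from 0.06 to 1.07 CPM (2 to 33 counts).

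**Figure D2:**
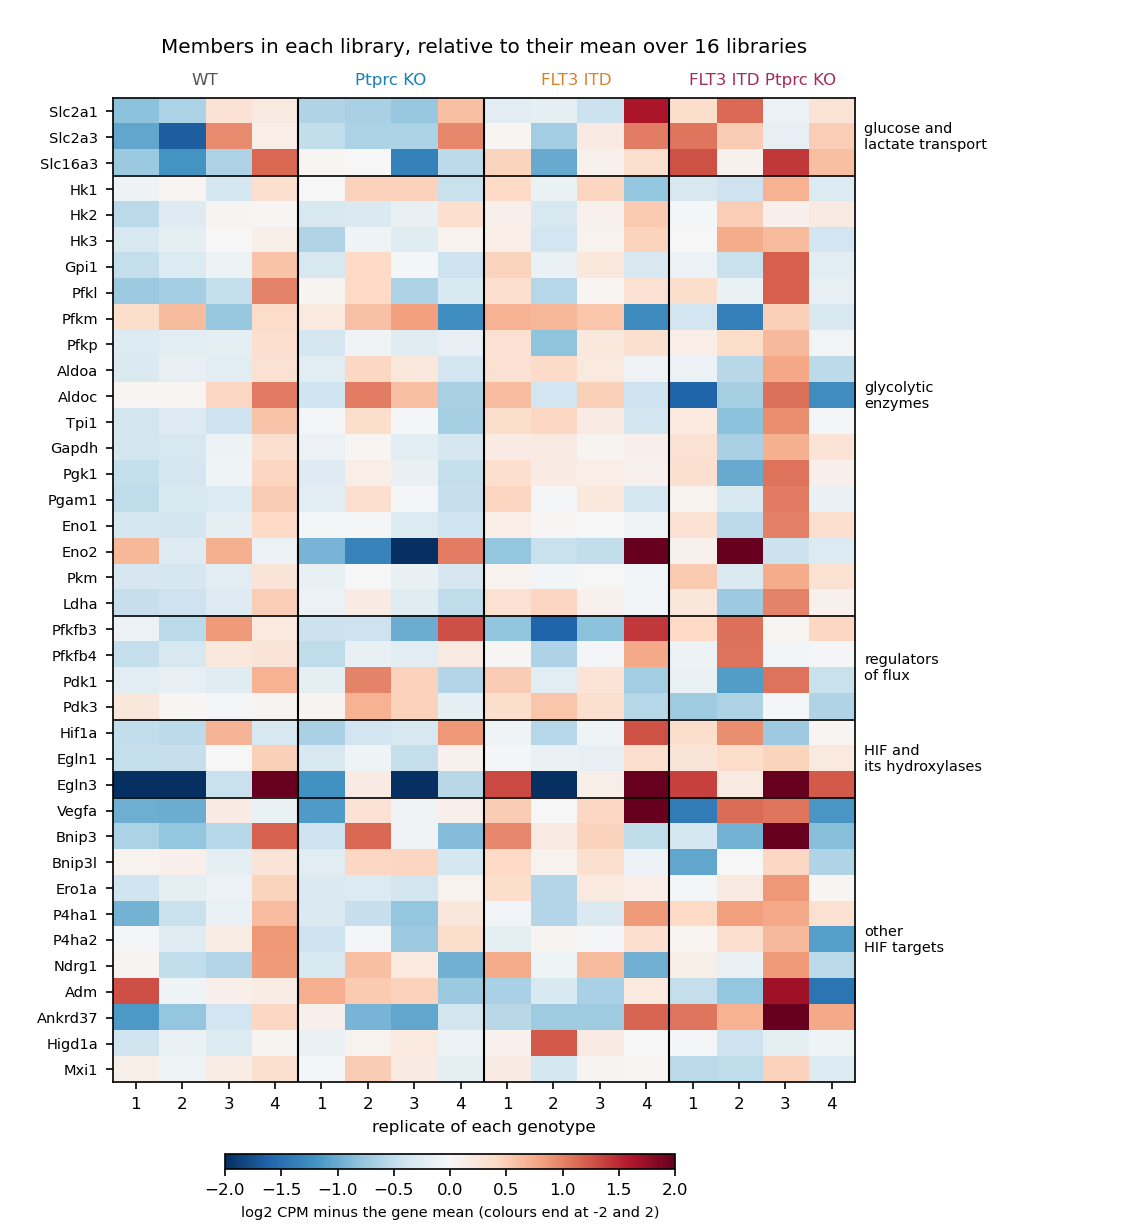
Colour shows log2 CPM (prior count 2) minus the gene's mean over 16 libraries for each member (rows, by role) in each library (columns, by genotype). WT replicate 4 and double-mutant replicate 3 are red over most rows, and Hif1a, Pfkfb3 and Eno2 are red in another library of each genotype.

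Double-mutant replicate 3 was the highest of 16 libraries for 21 of the 38 members, and WT replicate 4 the highest of its genotype for 28. For Hif1a, Pfkfb3 and Eno2 the 4 highest libraries were exactly the 4 with the highest macrophage markers, as held for 5.71% of all tested genes, and for Hk1, Pfkm and Tpi1 these were the 4 lowest, as held for 3.38%. Pdk3 had its 4 lowest values in the 4 libraries lowest in osteoclast markers, as held for 7.84% of all tested genes. What these marker levels contribute to the members' levels was not tested.

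**Figure D3:**
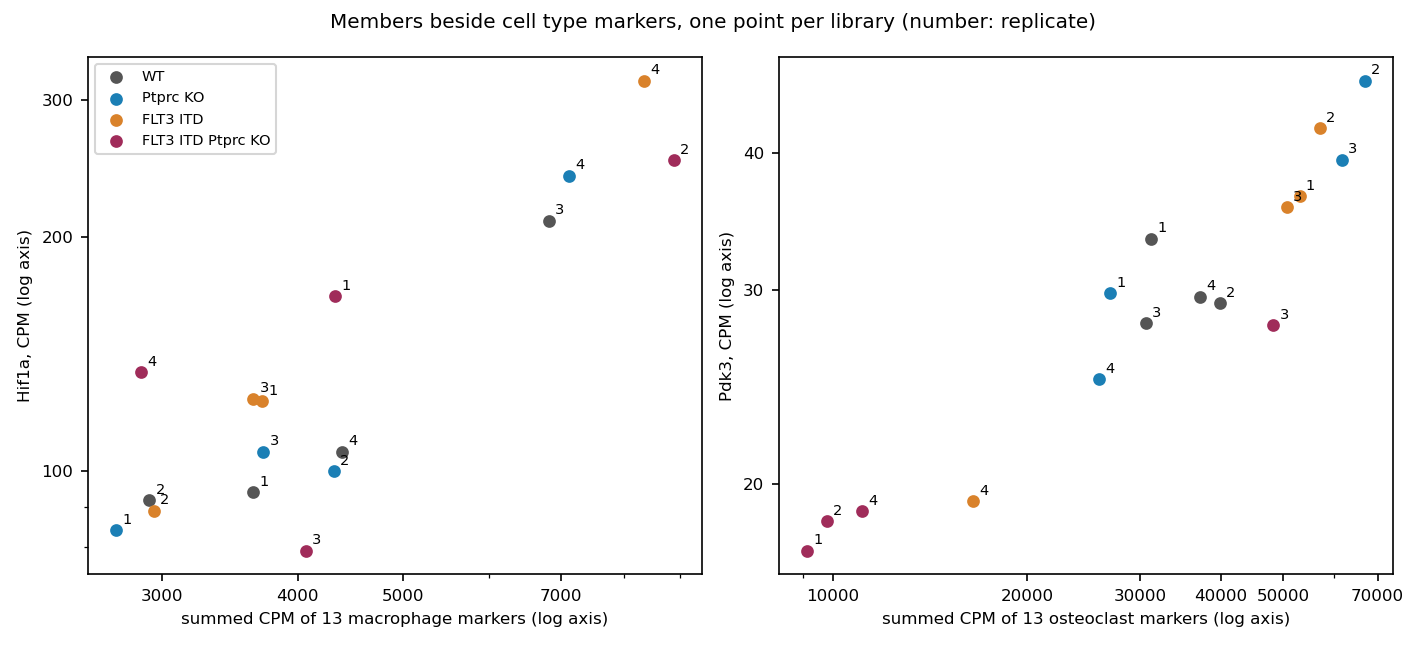
Each point is 1 library, coloured by genotype and numbered by replicate, on log axes: Hif1a against the summed CPM of 13 macrophage markers (left) and Pdk3 against that of 13 osteoclast markers (right). The 4 libraries with the highest macrophage markers hold the 4 highest Hif1a values, and the 4 with the lowest osteoclast markers the 4 lowest Pdk3 values.

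FLT3 ITD against WT asks what the kinase mutation changed while Ptprc was intact. No member was called (edgeR quasi-likelihood test, Benjamini-Hochberg adjusted p under 0.05), where 0.0413% of all tested genes were. At an unadjusted p under 0.05, 2 members stood higher (5.23% of all genes) and 0 lower (3.23%). These 2 became 1 without WT replicate 1, WT replicate 2 or FLT3 ITD replicate 2, and 4 without WT replicate 4. In fits with a library left out, here and in the comparisons below, the share of all genes under this p was not counted. Such changes therefore cannot be told apart from a shift over all genes. In this comparison the libraries of the 2 genotypes overlapped for all 38 members, where 2.89% of all genes lay wholly higher and 3.2% wholly lower. Of the members, 32 had a positive log2 fold change, with a median of 0.16, beside 54.5% and 0.04 over all genes. That count depended on the scale and on single libraries. On log2(TPM + 1), 16 of 37 members were positive with a median of -0.06 (all genes -0.21). There were 23 of 38 without FLT3 ITD replicate 4, 26 without WT replicate 1 or FLT3 ITD replicate 1, and 34 without WT replicate 4. With FLT3 ITD replicates 1 and 3 summed and replicate 4 left out, 19 members were positive. The median was 0.08 without WT replicate 1 and 0.33 without WT replicate 4. Higd1a had the lowest p, with 40 ± 18.6 CPM in FLT3 ITD and 25.7 ± 3.55 CPM in WT (SD, n = 4), a log2 fold change of 0.64 (SE 0.23, edgeR adjusted p = 0.59). Vegfa had the largest difference, 1.46 (SE 0.62, edgeR adjusted p = 0.59), at 157 ± 127 against 57.3 ± 23.1 CPM (SD, n = 4). The next by p were Hk2 (0.29, SE 0.2), Slc2a1 (0.65, SE 0.48), Adm (-0.97, SE 0.74) and Aldoa (0.29, SE 0.28), with adjusted p from 0.647 to 0.748 in edgeR. Single libraries carried much of these values. Without FLT3 ITD replicate 2, Higd1a stood at 0.25. Without FLT3 ITD replicate 4, Vegfa stood at 0.72 and Slc2a1 at -0.11, while Adm stood at -0.48 without WT replicate 1. Of the markers, 10 of 13 for osteoclasts (median 0.32) and 5 of 9 for neutrophils (median 0.05) were positive. Of the 14 proliferation genes, 12 were negative (median -0.35). The part of these levels in the members' values was not tested.

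The contrast of Ptprc KO with WT concerns CD45 loss alone. No member was called by edgeR (0.0331% of all genes were), and 0 had an unadjusted p under 0.05 (0.339% of all genes higher and 0.504% lower). The libraries of the 2 genotypes overlapped for all 38 members, where 0.786% of all genes lay wholly higher and 0.62% wholly lower. There were 15 members above 0, with a median of -0.05, beside 54.9% and 0.02 over all genes. Egln3 had the lowest p, at 1.4 ± 1.08 CPM in Ptprc KO and 4 ± 6.28 CPM in WT (SD, n = 4), a log2 fold change of -1.51 (SE 1.17, edgeR adjusted p = 1). WT replicate 4 set this difference, since without it the value for Egln3 was 0.67. P4ha2 (-0.4, SE 0.35), Pdk3 (0.23, SE 0.24), Higd1a (0.19, SE 0.23), Eno2 (-0.67, SE 0.9) and Ero1a (-0.17, SE 0.24) followed, with edgeR adjusted p of 1. The 95% interval of the log2 fold change was -0.45 to 0.41 for Pkm and -0.56 to 0.42 for Gapdh. Without WT replicate 4, 33 members were above 0 and the median of the members was 0.13. There were 9 above 0 without WT replicate 1, WT replicate 2 or Ptprc KO replicate 2, and 9 of 37 on log2(TPM + 1). Osteoclast markers were positive in 13 of 13 (median 0.39) and neutrophil markers in 8 of 9 (median 0.86). Proliferation genes were negative in 14 of 14 (median -0.26). The part of these levels in the members' values was not tested.

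The other comparisons set the double mutant against each other genotype, and since they share its 4 libraries they are not independent of each other. Against FLT3 ITD, no member was called by edgeR (0.00827% of all genes were). At an unadjusted p under 0.05, 1 member stood higher (11.9% of all genes) and 2 lower (13.7%). These 3 became 1 without FLT3 ITD replicate 2, 5 without FLT3 ITD replicate 4 or double-mutant replicate 2, and 6 without double-mutant replicate 3. Of the 38 members 27 were above 0, with a median of 0.15, beside 52% and 0.03 over all genes. Pdk3 stood at 20.7 ± 4.87 CPM in the double mutant and 33.4 ± 9.8 CPM in FLT3 ITD (SD, n = 4), a log2 fold change of -0.69 (SE 0.24, edgeR adjusted p = 0.13). Higd1a (25.7 ± 2.89 against 40 ± 18.6 CPM) differed by -0.64 (SE 0.23, edgeR adjusted p = 0.135) and was the 1 member whose libraries did not overlap, all lower in the double mutant (3.52% of all genes, and 4.95% higher), with 28.1 and 28.8 CPM at the edge. Ankrd37 (3.63 ± 2.4 against 1.37 ± 1.11 CPM) differed by 1.41 (SE 0.55, edgeR adjusted p = 0.147). Pkm (0.37, SE 0.2), Slc16a3 (0.88, SE 0.5) and Egln1 (0.3, SE 0.2) followed, with edgeR adjusted p of 0.242, 0.267 and 0.332.

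The libraries that stood apart decided the calls in this comparison. Without FLT3 ITD replicate 4, edgeR called Pdk3 (-0.88, adjusted p = 0.0303), Ankrd37 (2.15, adjusted p = 0.0312) and Higd1a (-0.77, adjusted p = 0.045), 3 of 38 members where 14.7% of all genes were called. Without double-mutant replicate 3 it called Pdk3 (-0.87, adjusted p = 0.0429), with 10.8% of all genes called, and 15 members were above 0 where 27 had been. Without FLT3 ITD replicate 2, the value of Higd1a was -0.26. With FLT3 ITD replicate 4 and double-mutant replicate 3 both left out, a choice made after seeing the data, edgeR called 7 members where 33.4% of all genes were called: Pfkfb3 (1.7) and Ankrd37 (1.58) higher, and Pdk3 (-1.06), Aldoa (-0.68), Aldoc (-1.42), Bnip3l (-0.75) and Higd1a (-0.76) lower in the double mutant, with adjusted p from 0.00371 to 0.0463. The 3 FLT3 ITD libraries that stay in include replicates 1 and 3, which were close to each other. With replicates 1 and 3 summed into 1 library, also chosen after seeing the data, edgeR called 2 members without FLT3 ITD replicate 4, Pdk3 (-0.91, adjusted p = 0.0453) and Higd1a (-0.95, adjusted p = 0.0437), where 6.69% of all genes were called, and Ankrd37 stood at 2.16 (adjusted p = 0.0542). With double-mutant replicate 3 left out too, it called 3, Pdk3 (-1.1), Ankrd37 (1.59) and Higd1a (-0.95), where 25.6% of all genes were called. These fits hold 2 FLT3 ITD libraries, 1 of them the library related to gene length. Leaving out FLT3 ITD replicate 4 and double-mutant replicate 3 widened the gap in osteoclast markers between the groups, from overlapping ranges to 9110 to 11100 CPM in the double mutant and 50600 to 56900 CPM in FLT3 ITD. With all libraries, 13 of 13 osteoclast markers were negative in this comparison (median -1.37), 8 of 9 neutrophil markers were negative (median -1.84) and 14 of 14 proliferation genes were positive (median 0.95). The part of these levels in the members' values was not tested.

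The double mutant against Ptprc KO addresses FLT3 ITD in cells without CD45. No member was called by edgeR (0.091% of all genes were), while 7 stood higher and 1 lower at an unadjusted p under 0.05 (8.75% and 9.07% of all genes). These 8 became 3 without Ptprc KO replicate 3 and 4 without Ptprc KO replicate 1. They became 10 without WT replicate 4, FLT3 ITD replicate 2, double-mutant replicate 2 or double-mutant replicate 4. The double-mutant libraries lay above all Ptprc KO libraries for 6 members, Ankrd37, Slc16a3, Egln1, Egln3, P4ha1 and Pfkp (3.48% of all genes), and below them for 0 (2.84%). There were 28 members above 0, with a median of 0.41, beside 54.4% and 0.04 over all genes. Ankrd37 stood at 3.63 ± 2.4 against 0.919 ± 0.374 CPM (SD, n = 4), a log2 fold change of 1.97 (SE 0.56, edgeR adjusted p = 0.18). The lactate exporter gene Slc16a3 stood at 163 ± 64.2 against 66.1 ± 25.2 CPM (SD, n = 4), a difference of 1.3 (SE 0.51, edgeR adjusted p = 0.254). Pdk3 differed the other way, 20.7 ± 4.87 against 35.2 ± 9.67 CPM (SD, n = 4), by -0.76 (SE 0.24, edgeR adjusted p = 0.205).

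In the same comparison Pkm differed by 0.53 (SE 0.2), Egln1 by 0.51 (SE 0.2) and P4ha1 by 0.86 (SE 0.35), with edgeR adjusted p of 0.251, 0.254 and 0.255. Egln3 differed by 2.89 (SE 1.21, edgeR adjusted p = 0.266) and Pfkp by 0.5 (SE 0.23, edgeR adjusted p = 0.279). These 2 lay outside the rule for named members, and they were picked with their values in view. For Pfkp the gap between the groups was 134 to 136 CPM. Over all members, leaving out double-mutant replicate 3 brought the median from 0.41 to 0.11. It also gave a call for Pdk3 (-0.94, edgeR adjusted p = 0.0437), where 6.45% of all genes were called. DESeq2 in place of edgeR called Ankrd37 (1.95, adjusted p = 0.0308) where it called 1.8% of all genes. With double-mutant replicate 3 and FLT3 ITD replicate 4 both left out, edgeR called 4 members, Pdk3 (-0.94), Aldoc (-1.42) and Mxi1 (-0.57) lower and Ankrd37 (1.39) higher, where 18.1% of all genes were called. With FLT3 ITD replicates 1 and 3 summed as well, Mxi1 was not called, where 14.7% of all genes were. Osteoclast markers summed to 9110 to 48200 CPM in the double mutant and 25900 to 66900 CPM in Ptprc KO, with 13 of 13 negative in this comparison (median -1.32). Of the neutrophil markers 8 of 9 were negative (median -3.43), and 14 of 14 proliferation genes were positive (median 0.98). Their part in these differences was not tested.

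**Figure D4:**
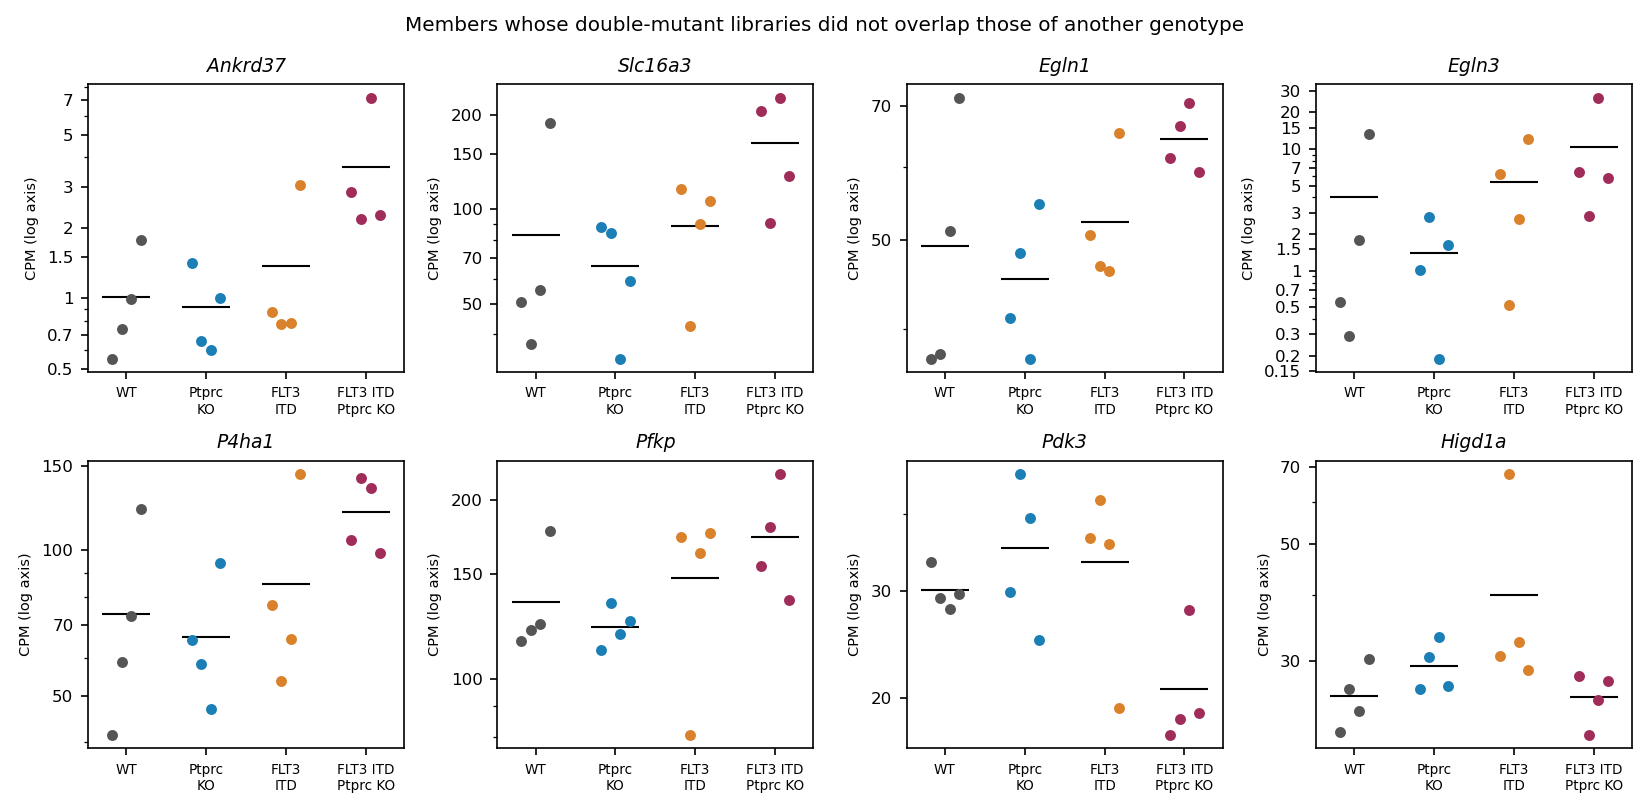
CPM on log axes in each library (points) and the group mean (line) for the 8 members whose double-mutant libraries did not overlap those of another genotype. In each comparison and direction this held for 2.56% to 4.95% of all tested genes. The share over the comparisons together was not counted, so the 8 cannot be set against it. Ankrd37, Slc16a3, Egln1, Egln3, P4ha1 and Pfkp lay above Ptprc KO, Ankrd37 also above WT, Pdk3 lay below WT and Higd1a below FLT3 ITD.

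Against WT, the double mutant again had no member called by edgeR (0.108% of all genes were). At an unadjusted p under 0.05, 2 members stood higher (4.2% of all genes) and 1 lower (3.69%). These 3 became 1 without WT replicate 1 or double-mutant replicate 1, 8 without WT replicate 4, 7 without double-mutant replicate 2 and 6 without double-mutant replicate 3. Ankrd37 was the 1 member with all double-mutant libraries above WT (2.94% of all genes) and Pdk3 the 1 with all below (2.56%). Ankrd37 stood at 3.63 ± 2.4 against 1.02 ± 0.538 CPM (SD, n = 4), a log2 fold change of 1.83 (SE 0.56, edgeR adjusted p = 0.38). Pkm differed by 0.51 (SE 0.2), Pdk3 by -0.54 (SE 0.24), P4ha1 by 0.7 (SE 0.35), Slc16a3 by 0.97 (SE 0.5) and Egln1 by 0.39 (SE 0.2), with edgeR adjusted p from 0.589 to 0.601. In all 30 members were above 0, with a median of 0.36, beside 56.3% and 0.05 over all genes, and without double-mutant replicate 3 there were 22, with a median of 0.08. With FLT3 ITD replicate 4 and double-mutant replicate 3 both left out, Pdk3 (-0.72, edgeR adjusted p = 0.0381) and Aldoc (-1.57, edgeR adjusted p = 0.0484) were called, where 6.68% of all genes were. With FLT3 ITD replicates 1 and 3 summed as well, 0 members were called, where 4.3% of all genes were. Of the markers, 13 of 13 for osteoclasts (median -0.91) and 8 of 9 for neutrophils (median -2.45) were negative against WT, and 14 of 14 proliferation genes were positive (median 0.76). Their part in the members' values was not tested.

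The interaction asks whether the loss of Ptprc made a different change in FLT3 ITD than in WT. No member was called by edgeR (0.00827% of all genes were), and at an unadjusted p under 0.05 there were 2 negative members (10.1% of all genes) and 0 positive ones (7.4%). There were 26 members above 0, with a median of 0.2, beside 51.2% and 0.02 over all genes. Without WT replicate 4 there were 17, with a median of -0.06, and without double-mutant replicate 3 there were 19, with a median of 0. The 2 members under that p became 5 without FLT3 ITD replicate 4 and 4 without double-mutant replicate 2. Osteoclast markers were negative in 13 of 13 (median -1.53) and neutrophil markers in 8 of 9 (median -2.68), and 14 of 14 proliferation genes were positive (median 1.14). What these contribute was not tested. Pdk3 had an interaction of -0.92 (SE 0.34, edgeR adjusted p = 0.262) and Higd1a of -0.83 (SE 0.33, edgeR adjusted p = 0.265). Ankrd37 (1.54, SE 0.78), Slc16a3 (1.2, SE 0.71), Egln3 (2.46, SE 1.62) and Egln1 (0.42, SE 0.28) followed, with edgeR adjusted p from 0.309 to 0.404. Egln3 stood at 0.27 without WT replicate 4, and Higd1a at -0.45 without FLT3 ITD replicate 2. With FLT3 ITD replicate 4 and double-mutant replicate 3 both left out, Pdk3 (-1.28, edgeR adjusted p = 0.00905) and Ankrd37 (1.71, edgeR adjusted p = 0.0488) were called, as were 20.2% of all genes. With FLT3 ITD replicates 1 and 3 summed as well, Pdk3 (-1.32, edgeR adjusted p = 0.016) and Higd1a (-1.14, edgeR adjusted p = 0.0427) were called, as were 15.9% of all genes.

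**Figure D5:**
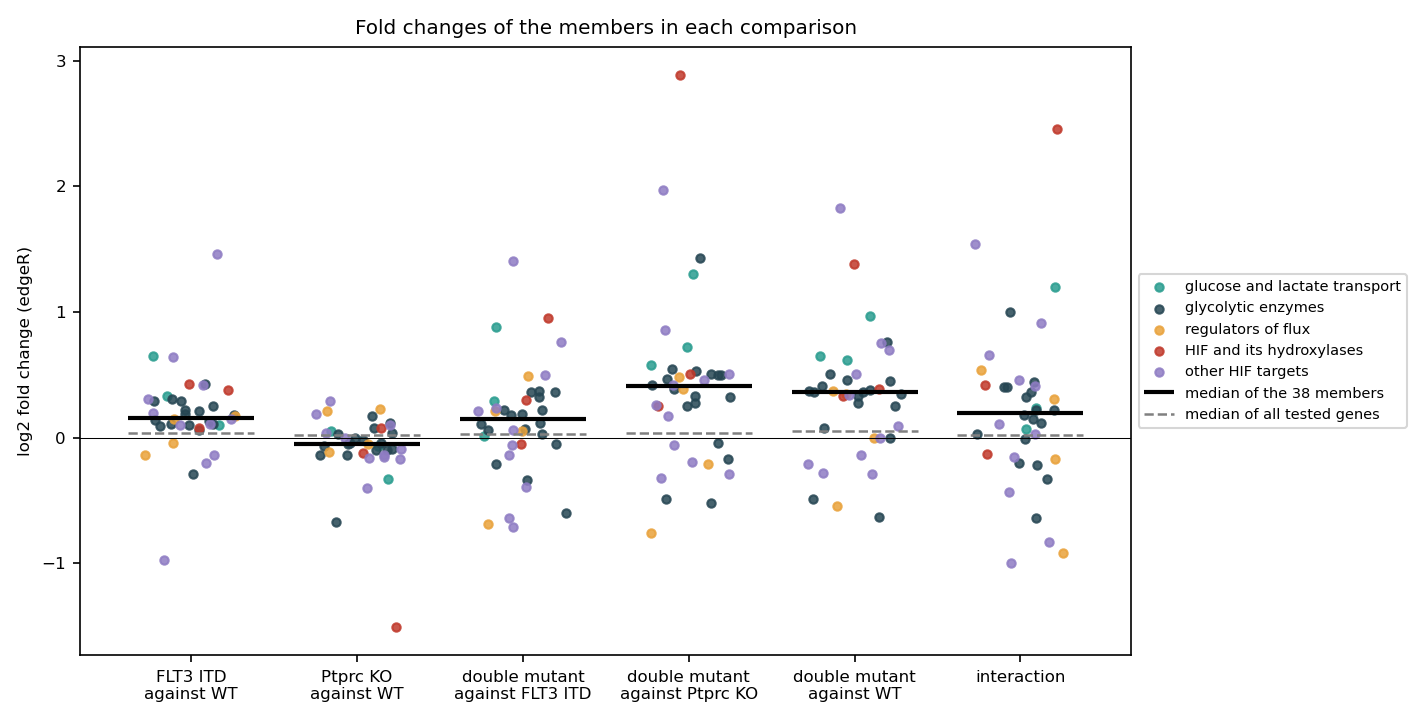
Log2 fold changes of the 38 members (points, coloured by role) in the 5 comparisons and the interaction, with the members' median (black line) and that of all tested genes (dashed). The medians are 0.16, -0.05, 0.15, 0.41, 0.36 and 0.2 from left to right, and no point passed the test.

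By role, the medians of the transporters and of the HIF group were the highest in the double mutant against Ptprc KO and against FLT3 ITD. Against Ptprc KO the median log2 fold change was 0.72 for the 3 transporters, 0.39 for the 17 enzymes, 0.09 for the 4 regulators of flux, 0.51 for Hif1a and its 2 hydroxylases and 0.26 for the 11 other HIF targets. For the double mutant against FLT3 ITD the same medians were 0.29, 0.12, 0.13, 0.3 and 0.06. The central genes Hif1a, Pdk1 and Bnip3 differed by 0.25, -0.21 and 0.42 against Ptprc KO (SE 0.46, 0.45 and 0.69), each smaller than its SE. The other central genes differed by 0.72 (Slc2a1, SE 0.48), 0.28 (Hk2, SE 0.2), 0.39 (Pfkfb3, SE 0.62), 0.42 (Ldha, SE 0.3) and 0.46 (Vegfa, SE 0.61), with edgeR adjusted p from 0.401 to 0.721.

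Among pathway genes outside the set, edgeR also called 0 in every comparison. Of 29 tested genes of glycolysis and pyruvate handling, 22 were negative in the double mutant against FLT3 ITD, with a median of -0.61 beside 0.03 over all genes, and 20 of 29 against Ptprc KO, with a median of -0.41. The lowest p belonged to Ldhb, whose product favours the step from lactate back to pyruvate. Ldhb stood at 95.8, 101, 92.5 and 85 CPM in WT, 85, 235, 202 and 81.5 CPM in Ptprc KO, 125, 216, 120 and 45.5 CPM in FLT3 ITD and 20, 22.4, 54.2 and 5.91 CPM in the double mutant. The double-mutant libraries lay below all WT and Ptprc KO libraries for Ldhb (2.56% and 2.84% of all genes), and FLT3 ITD replicate 4 lay among them. The 4 lowest Ldhb libraries were the 4 lowest in osteoclast markers, as held for 7.84% of all tested genes. The log2 fold change of Ldhb was -2.56 against Ptprc KO (SE 0.59, edgeR adjusted p = 0.0981), -2.3 against FLT3 ITD (SE 0.58, edgeR adjusted p = 0.105) and -1.87 against WT (SE 0.57, edgeR adjusted p = 0.386). Mpc1 and Mpc2, the subunits of the mitochondrial pyruvate carrier, differed by -0.61 (SE 0.17) and -1.48 (SE 0.42) against FLT3 ITD, both with an edgeR adjusted p of 0.109. Gpd1, a glycerol phosphate dehydrogenase gene, differed by -2.36 (SE 0.55) and Eno3, the muscle enolase gene, by -1.12 (SE 0.32) against Ptprc KO, with edgeR adjusted p of 0.101 and 0.18. Mpc2, Gpd1 and Eno3 also had their 4 lowest values in the 4 libraries lowest in osteoclast markers, while Mpc1 did not. The part of these marker levels in the differences was not tested.

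The pentose phosphate list (8 genes), the HIF machinery (18 tested genes, such as Arnt, Vhl and Egln2) and 36 tested further HIF targets also held 0 called genes. Their medians in the double mutant against FLT3 ITD were -0.01, -0.05 and -0.14, and against Ptprc KO 0.24, 0.05 and -0.03. The lowest p in the pentose phosphate list belonged to Pgls (-0.63, SE 0.19, edgeR adjusted p = 0.115, against FLT3 ITD). In the HIF machinery it belonged to Arnt2, at 1.43 CPM in the double mutant and 0.754 CPM in Ptprc KO (0.92, SE 0.32, edgeR adjusted p = 0.231).

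Among the further HIF targets the lowest p belonged to Nos2, the gene of the inducible nitric oxide synthase. Nos2 stood at 1.59, 0.345, 0.412 and 0.426 CPM in WT, 0.692, 0.525, 0.227 and 0.643 CPM in Ptprc KO, 0.219, 0.13, 0.0625 and 0.333 CPM in FLT3 ITD and 3.06, 0.865, 6.81 and 2.55 CPM in the double mutant. The double-mutant libraries lay above all Ptprc KO and FLT3 ITD libraries (3.48% and 4.95% of all genes) and overlapped WT through its replicate 1. The log2 fold change of Nos2 was 4.14 against FLT3 ITD (SE 0.74, edgeR adjusted p = 0.0966) and 2.65 against Ptprc KO (SE 0.67, edgeR adjusted p = 0.13). It was 2.26 against WT (SE 0.65, edgeR adjusted p = 0.348), and the interaction was 4.54 (SE 0.98, edgeR adjusted p = 0.245). With at most 0.333 CPM in the FLT3 ITD libraries, the difference from FLT3 ITD and the interaction rest on few counts.

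Over the 16 libraries, the 5 tested genes outside the set with the pattern most like the members' mean log2 CPM were Ak4 (Pearson r 0.902), Mgarp (0.874), Txnip (0.868), Ankdd1a (0.848) and Ccdc127 (0.779). These correlations describe the 16 libraries, which include cultures that stand apart. Ak4, an adenylate kinase gene, stood between 0.849 CPM in WT replicate 2 and 27.9 CPM in double-mutant replicate 3. It was also in the list of further HIF targets.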

How the data were processed

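The authors deposited a table of counts, whole numbers per gene that were not normalized, and a table of TPM, which they scaled to gene length and to 1000000 per library. Per the submitters' processing notes, the tools were STAR 2.7.6a and featureCounts 2.0.3, beside UMI-tools 1.1.1, cutadapt 4.2 and bcl2fastq 2.20.0.422, with build GRCm38.p6. Their settings, and whether the counting used strand, are not given in the sources used here. Of the members, 6 are overlapped by another gene on the same strand and 14 on the other strand only (GENCODE annotation of that build).

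The test on counts was that of edgeR 4.0.16 under R 4.3.3 (filterByExpr, TMM, robust quasi-likelihood fit of 4 group means over 16 libraries, two-sided, Benjamini-Hochberg over 12093 genes, threshold 0.05). The common dispersion was 0.137, with 12 residual degrees of freedom. Each standard error was derived from the F statistic of its log2 fold change, and each 95% interval from that error. The script was tested on simulated counts. CPM used TMM-scaled totals, log2 CPM a prior count of 2. Total counts of 24211724 to 35773313 set the precision, and members with few counts, such as Adm and Ankrd37, have the least.

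Members and lists were chosen with earlier results of these data known. Named were the members past the threshold, up to 6 per comparison with the lowest unadjusted p, 8 central genes (Hif1a, Slc2a1, Hk2, Pfkfb3, Ldha, Pdk1, Vegfa, Bnip3), Ptprc, up to 3 genes per further list and comparison by p, and the 5 genes most alike. Alternatives were DESeq2 1.42.0, limma 3.58.1 on log2(TPM + 1) or log2(TPM + 0.1) where the mean TPM reached 1, RLE factors, a stricter filter (mean count 50 or more) or none, a replicate block, only the groups compared, FLT3 ITD replicates 1 and 3 summed (also without replicate 2, or without the libraries that stood apart), and each library left out.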

Additional observations from a re-analysis of the deposited data

Results flagged for a closer look

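Of 152 groups of 4 libraries (38 members in 4 genotypes), 16 held a library whose gap to the nearest other, over the group's range, was above Dixon's 95% critical value for 4 values. Chance flags about 1 in 20 groups, and the members move together, so the groups are not independent.

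In WT replicate 4, Pfkl stood at 180 CPM (others 55 to 65.5), Pfkp at 177 (116 to 124), Tpi1 at 864 (434 to 487), Pdk1 at 327 (172 to 180) and Bnip3 at 117 (30 to 34.9). In WT replicate 1, Adm stood at 0.795 CPM (0.265 to 0.32). In Ptprc KO replicate 4, the glucose transporter genes Slc2a1 and Slc2a3 stood at 141 CPM (54.9 to 61.1) and 6.29 CPM (2.04 to 2.26).

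In FLT3 ITD replicate 4, Slc2a1 stood at 287 CPM (69.1 to 81.1), Eno2 at 6.95 (0.815 to 1.04) and Ankrd37 at 3.04 (0.78 to 0.877), while Pfkm was low at 8.53 CPM (30 to 33.2). In FLT3 ITD replicate 2, Higd1a stood at 67.8 CPM (28.8 to 32.6) and Pfkp was low at 80.5 CPM (163 to 176). In the double mutant, Hk1 stood at 360 CPM in replicate 3 (167 to 183) and Pfkfb4 at 52.5 CPM in replicate 2 (22.9 to 24.2).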

How the results depend on the processing

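No member was called in FLT3 ITD against WT or Ptprc KO against WT under any alternative run (16 libraries left out in turn and 13 others). The count of called members moved from 0 in the other comparisons. For the double mutant against FLT3 ITD it was 0 to 3 with 1 library left out (3 without FLT3 ITD replicate 4, 1 without double-mutant replicate 3) and 7 with both of these left out, an alternative added after seeing the data. Against Ptprc KO it was 0 to 1 with 1 library left out, 1 with DESeq2 and 4 with both left out. Against WT and for the interaction it was 2 with both left out. With FLT3 ITD replicates 1 and 3 summed, it was 2 against FLT3 ITD without FLT3 ITD replicate 4 (6.69% of all genes). Without both it was 3 against FLT3 ITD, 3 against Ptprc KO, 0 against WT and 2 for the interaction. The shares of all genes called there were 25.6%, 14.7%, 4.3% and 15.9%. Reversal of sign was checked gene by gene only for the members with the lowest unadjusted p in each comparison. Among these, Slc2a1 reversed in FLT3 ITD against WT, at -0.11 without FLT3 ITD replicate 4 and with both left out. Its range was -0.11 to 0.85 with 1 library left out. With FLT3 ITD replicates 1 and 3 summed, Slc2a1 stood at -0.09 without FLT3 ITD replicate 4 and -0.08 without both. In Ptprc KO against WT without WT replicate 4, Egln3 (0.67, range -2.06 to 0.67) and Ero1a (0.03, range -0.28 to 0.03) reversed. Further members changed sign there, since the count above 0 went from 15 to 33. In FLT3 ITD against WT that count went from 32 to 23 without FLT3 ITD replicate 4. For the double mutant against FLT3 ITD it went from 27 to 15 without double-mutant replicate 3. The cause was not tested.

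Counts over all genes depended on these libraries. For the double mutant against FLT3 ITD, 1 gene was called, 751 with DESeq2, 1798 without FLT3 ITD replicate 4, 1315 without double-mutant replicate 3 and 4058 without both (824 and 3145 in place of 1798 and 4058 with FLT3 ITD replicates 1 and 3 summed). Against Ptprc KO the counts were 11, 296 (DESeq2), 80, 786 and 2200, against WT 13, 123, 29, 83 and 813, and for the interaction 1, 126, 17, 56 and 2459. In FLT3 ITD against WT, 5 became 64 with DESeq2, and in Ptprc KO against WT 4 became 12.

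Medians of the members kept within 0.32 on the log2 scale (the SD of their mean within genotypes), but had the other sign in FLT3 ITD against WT on TPM (-0.06), in the double mutant against FLT3 ITD without double-mutant replicate 3 (-0.14) or without both (-0.08, or -0.1 with FLT3 ITD replicates 1 and 3 summed), in Ptprc KO against WT without WT replicate 4 (0.13) and in the interaction there (-0.06). On log2(TPM + 1) the median of all genes shifted to -0.21 in FLT3 ITD against WT, 0.22 in the double mutant against FLT3 ITD and 0.31 in the interaction, where the members' medians were -0.06, 0.26 and 0.37.

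Replicate numbers are shared between genotypes, and libraries with the same number showed no consistent pairing. Of 20 such pairs over the comparisons, 9 had a correlation over 0.1 (-0.74 to 0.8). In 8 of the 20 the same number was the best match, and some libraries count in more than 1 of them. With a replicate block 0 members were called in every comparison, and the counts over all genes were 0, 1, 1, 47, 9 and 0 in the order of the text.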
